A study of Mus musculus with 9 samples.

Results

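The epithelial alarmins are the cytokines IL-33, TSLP and IL-25, and their transcripts were followed here together with those of the receptor chains that recognise them. The members were taken by gene symbol from the deposited expression table: the 3 ligand genes Il33, Tslp and Il25, and the 4 receptor genes Il1rl1, Crlf2, Il7r and Il17rb. These are 7 of the 55851 genes in the table, each matched by a single row. A filter on low values asked for a mean of at least 0.2 FPKM over all libraries. FPKM is reads per kilobase of gene length, scaled by the authors with a factor per library. After the filter 6 of the 7 were tested among 17716 genes, and Il25 was not.

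Total lung cells of female C57BL/6J mice were sequenced in 3 groups of 3 libraries. The WT PBS group (replicates 1, 2 and 3) is wild type after a challenge with phosphate-buffered saline, the WT OVA group (replicates 5, 6 and 9) is wild type after the allergen ovalbumin, and the DJ-1 KO OVA group (DJ1_KO_OVA_263, DJ1_KO_OVA_266 and DJ1_KO_OVA_267) lacks DJ-1 and had ovalbumin too; values of a group are given in this order throughout. All 9 carry the time label 7 weeks, without a statement of what it counts from, and no knockout group given saline is among them, so WT OVA against DJ-1 KO OVA is a comparison of genotypes under challenge only. The labels do not say how the DJ-1 allele was made or whether each library is a separate animal, so p-values measure the spread between these libraries, which may be technical.

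Alarmins are cytokines that barrier epithelium releases on damage or contact with allergen, and in the airway they are known as early triggers of type 2 inflammation. IL-33 binds ST2, the product of Il1rl1, which pairs with the IL-1 receptor accessory protein encoded by Il1rap and signals through MyD88 and IRAK kinases. TSLP binds the chain encoded by Crlf2 together with the IL-7 receptor alpha chain encoded by Il7r and signals through JAK kinases and STAT5, while IL-25 binds the chain encoded by Il17rb together with that of Il17ra and signals through the adaptor Act1. Type 2 innate lymphoid cells, Th2 cells, mast cells and some regulatory T cells carry ST2, and lung IL-33 in mice comes mainly from alveolar type 2 epithelial cells.

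Library depth was 20812192 to 29080130 reads, recovered from the FPKM values. Park7, the gene that encodes DJ-1, averaged 46.7 FPKM with saline and 57.2 with ovalbumin in the wild type and 5.08 ± 1.92 (SD, n = 3) in the knockout, which was 10.7-fold lower than WT OVA with an adjusted p of 0.00019 (limma, Benjamini-Hochberg over all tested genes, as for every adjusted p here). All 3 knockout libraries lay below every wild-type library for Park7. Of the markers of 18 lung and immune cell types none was at 0 in all libraries, but in summed levels the knockout libraries stood apart for several types. Alveolar type 2 markers summed to 6331 to 13534 FPKM in DJ-1 KO OVA against 32404 to 41400 in WT OVA, and neutrophil markers to 1235 to 4043 against 12197 to 18197. A sum follows its most abundant markers. Sftpc made up most of the first, at 5089 to 11646 and 30215 to 38446 FPKM, and S100a8 and S100a9 most of the second. Abca3, Etv5, Sftpb and Slc34a2 overlapped between these groups, although 0 of the 8 alveolar type 2 markers had a difference above 0. DJ1_KO_OVA_263 had the lowest sum of endothelial markers, 20.2 FPKM, and the highest sum of T cell markers, 522 FPKM, while the other 8 libraries ran from 41.5 to 135 and from 99.3 to 192.

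The sequences before the annotated starts of Il33 and Il1rl1 are shown first, because these genes encode a ligand and its receptor and both rose in the comparison of genotypes. Promoter windows at RefSeq (GRCm38.p6) starts were used for 5 of the 7 members, with 7 starts in all. None was used for Tslp or Il25, which does not mean that RefSeq lists no start for them. The 250 bases before each start were searched on both strands for a STAT6 site (TTC, then 4 bases of any kind, then GAA), a GATA site (AGATAA), an antioxidant response element (TGACNNNGC) and an NF-kB site (GGG, then 2 bases of any kind, TT, 1 base of any kind and CC). Capitals mark the matches, read 5′ to 3′ on the strand of the gene. The first Il33 window is chr19:29924863-29925112 (+), and the Il1rl1 windows are chr1:40429320-40429569 (+) and chr1:40439379-40439628 (+).
Il33, first start: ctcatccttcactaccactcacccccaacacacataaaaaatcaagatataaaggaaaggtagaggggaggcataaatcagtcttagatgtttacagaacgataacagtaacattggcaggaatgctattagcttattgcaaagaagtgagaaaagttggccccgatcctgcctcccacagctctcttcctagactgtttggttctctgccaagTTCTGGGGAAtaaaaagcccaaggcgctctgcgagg
Il1rl1, first start: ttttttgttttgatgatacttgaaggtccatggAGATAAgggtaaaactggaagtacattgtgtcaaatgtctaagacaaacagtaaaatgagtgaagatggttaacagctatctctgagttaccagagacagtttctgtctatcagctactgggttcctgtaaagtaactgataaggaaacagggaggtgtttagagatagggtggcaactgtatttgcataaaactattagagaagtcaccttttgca
Il1rl1, second start: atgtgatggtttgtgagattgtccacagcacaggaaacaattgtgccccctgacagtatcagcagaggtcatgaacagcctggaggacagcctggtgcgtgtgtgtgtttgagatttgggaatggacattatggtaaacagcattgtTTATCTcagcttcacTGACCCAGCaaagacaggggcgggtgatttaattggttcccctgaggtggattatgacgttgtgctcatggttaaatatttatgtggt
The Il33 window held a STAT6 match 36 bases before the start, a motif found in 5.85% of 32851 promoter windows of this length. The first Il1rl1 window held a GATA match 217 bases before the start, and the second held a GATA match on the other strand (TTATCT) at 103 bases and an antioxidant response element match at 88 bases. GATA matches occurred in 9.99% and antioxidant response element matches in 10.2% of all windows. The second Il33 window (chr19:29945540-29945789) and those of Crlf2, Il7r and Il17rb held no match to the 4 motifs, and a match is a description of letters only. The Il17rb window (chr14:30008897-30009146), with 124 of its bases in an exon of the neighbouring gene Chdh, had a GC content of 72% against a median of 52.4% over all windows. The Il7r window lies within Il7r, with 86 of its bases in exons of that gene, and the second windows of Il33 and Il1rl1 lie within those genes. The 2 RefSeq starts used here lie 20677 bases apart in Il33 and 10059 bases apart in Il1rl1. Another annotation, GENCODE, lists 5 coding start sites for each of these genes. One FPKM value per gene does not split transcripts from different starts, nor soluble from membrane-bound ST2.

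The DJ-1 KO OVA libraries had higher FPKM than the WT OVA libraries for 1 alarmin, Il33, and 3 receptor chains, Il1rl1, Il7r and Il17rb, by 1.77-fold to 3.06-fold. Of 18 alternatives the call held in 16 for Il33, 14 for Il1rl1 and 8 for Il7r. For Il17rb it held in all 17 that tested it. Tslp and Crlf2 did not pass the test in any comparison. In WT OVA against WT PBS 0 of 6 tested members passed the threshold of an adjusted p below 0.05, where 0.00564% of all tested genes did, which is 1 gene by limma, with 1146 at an unadjusted p under 0.05. In DJ-1 KO OVA against WT OVA 4 of 6 rose (Il33, Il1rl1, Il7r and Il17rb) and 0 fell. There 14.2% of all tested genes were called, 5.93% higher and 8.24% lower. These shares stand beside all list and marker counts given below for that comparison. In DJ-1 KO OVA against WT PBS the same 4 rose, where 8.54% were called, 4.07% higher and 4.47% lower. These 2 comparisons share the knockout libraries. The members and all lists here were chosen with earlier results of these data known, so no count is an independent test. Groups did not overlap for 1, 4 and 4 of the 6 members in the 3 comparisons, and for 14.8%, 37.2% and 25.6% of all tested genes. The median difference of the 6 members was 0.14, 1.06 and 1.30, beside 0.00, 0.00 and 0.00 for all tested genes. The medians of all tested genes depend on the scaling, and were -0.22, 0.46 and 0.24 with FPKM scaled to equal sums. The count of 4 in DJ-1 KO OVA against WT OVA was 2, 1 and 2 on leaving out WT OVA replicate 5, 6 or 9, 2 without DJ1_KO_OVA_267 and 2 with no filter on low values. Among all tested genes, 98.0% had a smaller difference than Il33 in that comparison, 99.1% than Il1rl1, 98.8% than Il17rb and 92.0% than Il7r, against 32.0% for Tslp and 41.1% for Crlf2.

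IL-33 is the alarmin with the most transcript in every group. Il33 (ENSMUSG00000024810) lies on chromosome 19 from 29925114 to 29960718 on the plus strand. It measured 26.9, 32.4 and 30.2 FPKM in the WT PBS libraries, 34.3, 33.9 and 33.1 in the WT OVA libraries and 113, 88.4 and 57.7 in the knockout libraries. The knockout libraries were all above every wild-type library and spanned a wider range than the wild type. Group means were 29.8 ± 2.77, 33.7 ± 0.613 and 86.3 ± 27.6 FPKM (SD, n = 3). On the log2(FPKM + 0.5) scale, on which every fold change here is given, Il33 in DJ-1 KO OVA was 1.29 ± 0.24 (SE) above WT OVA, or 2.44-fold with a 95% interval of 1.68 to 3.55 and an adjusted p of 0.014. The adjusted p was 0.052 without WT OVA replicate 6 and 0.053 without replicate 9, with differences of 1.29 and 1.27. Against WT PBS the knockout value was 2.77-fold higher, with an adjusted p of 0.0076. The wild-type groups did not overlap for Il33, but their difference of 0.18 had an adjusted p of 0.85 and turned to -0.13 with FPKM scaled to equal sums. Of 8 alveolar type 2 markers, 0 rose and 2 fell in the same comparison (Napsa, an aspartic protease of surfactant maturation, and Lamp3, a lamellar body protein), with a median difference of -0.86. The count of 2 was 0 without DJ1_KO_OVA_267 or any single WT OVA replicate, 1 without WT PBS replicate 1 or 3 and 3 without DJ1_KO_OVA_266. It was 0 as well with quantile normalization, with no filter on low values and in the fit of the compared groups alone, and 4 in the limma-voom fit and under the stricter filter. Whether that shift has a part in the Il33 difference was not tested. In bulk libraries such as these, fewer cells of a type and less RNA per cell cannot be told apart.

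**Figure D1:**
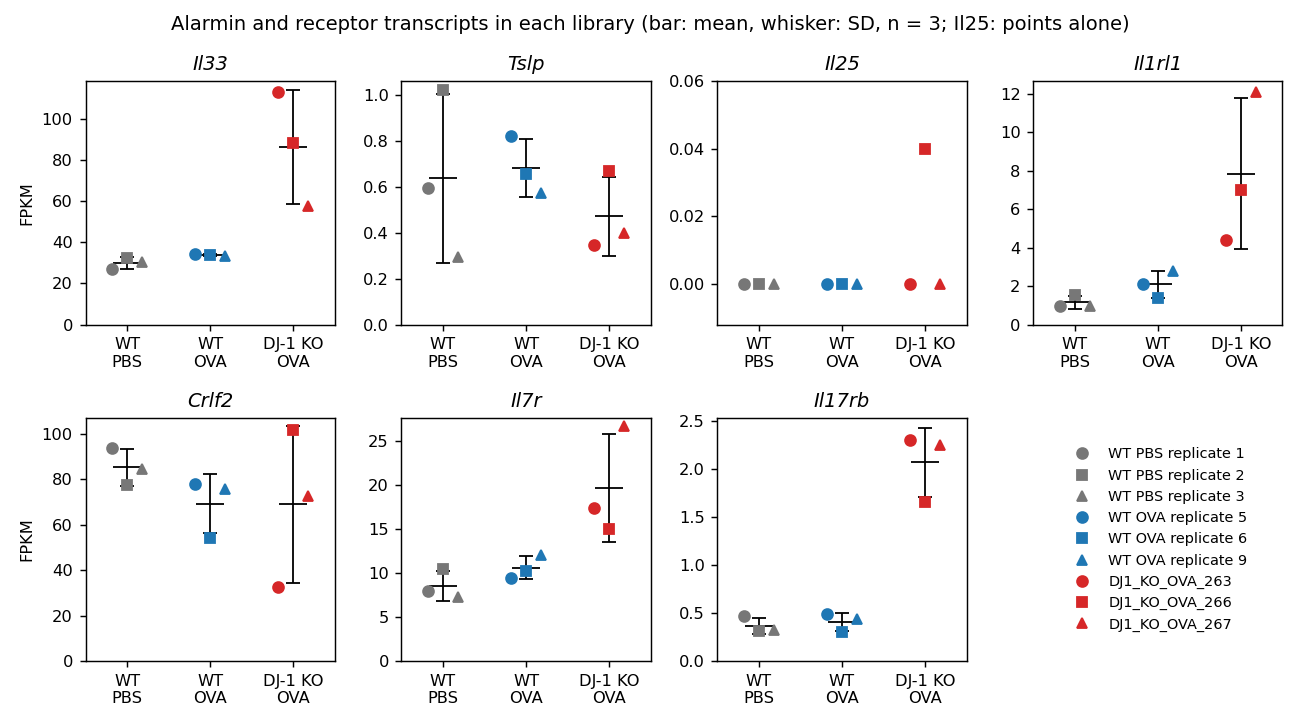
FPKM (y axis, from 0) of the 7 transcripts in each of the 9 libraries by group (x axis); points are libraries, bars the mean and whiskers the SD of 3 libraries, and Il25 is shown as points alone with its axis starting just under 0. Il33, Il1rl1, Il7r and Il17rb have all 3 knockout libraries above all 6 wild-type libraries, while Tslp and Crlf2 overlap.

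TSLP transcripts were scarce in all groups. Tslp (ENSMUSG00000024379, chromosome 18) measured 0.598, 1.02 and 0.293 FPKM in the WT PBS libraries, 0.822, 0.656 and 0.573 in the WT OVA libraries and 0.349, 0.668 and 0.399 in the knockout libraries. These rest on 12 to 28 reads a library. All 3 groups overlapped, and the widest spread was within WT PBS. The difference of DJ-1 KO OVA from WT OVA was -0.29 ± 0.25 (SE), a ratio with a 95% interval of 0.554 to 1.20 and an adjusted p of 0.43, and it changed sign to 0.022 with equal sums and to 0.068 with a length trend removed. Equal levels are therefore not shown.

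IL-25 was at the edge of detection. Il25 (ENSMUSG00000040770), on chromosome 14 from 54932695 to 54935837, had 0 reads in 8 of the 9 libraries and 1 read in DJ1_KO_OVA_266, or 0.0398 FPKM. A count of 0 allows up to 3 reads, which corresponds to 0.0819 to 0.147 FPKM depending on the library and covers counting error only. No group difference was detectable at this depth. Tuft cells, a known airway source of IL-25, were hardly represented in the RNA: the 8 tuft markers summed to 0.748 to 1.69 FPKM for WT PBS, 0.840 to 0.965 for WT OVA and 1.40 to 1.95 for the knockout. No tuft marker was at 0 in all libraries, and 2 of 8 passed the filter. Of those 2, Dclk1, a kinase that marks tuft cells but is not limited to them, rose 1.64-fold in DJ-1 KO OVA against WT OVA with an adjusted p of 0.037, which reached 0.41 with a length trend removed and was 0.062 to 0.14 on leaving out WT PBS replicate 1, any WT OVA replicate, DJ1_KO_OVA_263 or DJ1_KO_OVA_267. The defining tuft factor Pou2f3 stayed at or below 0.0737 FPKM in every library.

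The ST2 receptor gene Il1rl1 was higher in DJ-1 KO OVA than in both wild-type groups. Il1rl1 (ENSMUSG00000026069) lies on chromosome 1 from 40429570 to 40465415 on the plus strand. It measured 0.964, 1.55 and 0.982 FPKM in the WT PBS libraries, 2.09, 1.41 and 2.78 in the WT OVA libraries and 4.39, 7.01 and 12.1 in the knockout libraries. The knockout libraries were all above the wild-type libraries, and the wild-type groups overlapped through WT PBS replicate 2 and WT OVA replicate 6. The means were 1.16 ± 0.332, 2.09 ± 0.688 and 7.83 ± 3.92 FPKM (SD, n = 3). DJ-1 KO OVA exceeded WT OVA by 1.61 ± 0.34 (SE) on the log2 scale, a 3.06-fold difference with an adjusted p of 0.019. The adjusted p was 0.057 or 0.067 on leaving out WT OVA replicate 5 or 6, 0.068 without DJ1_KO_OVA_267 and 0.059 with no filter. Against WT PBS the difference was 4.70-fold with an adjusted p of 0.0050, and it passed the threshold in all 18 alternative settings. WT OVA against WT PBS gave 0.62 ± 0.34 (SE) and an adjusted p of 0.73.

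Within the knockout group the ligand and its receptor stood in opposite order over the 3 libraries. Il33 was highest in DJ1_KO_OVA_263 and lowest in DJ1_KO_OVA_267, whereas Il1rl1 was lowest in DJ1_KO_OVA_263 and highest in DJ1_KO_OVA_267. The ratio of Il33 to Il1rl1 FPKM was 25.7, 12.6 and 4.77 in the knockout libraries, against 11.9 to 24.1 for WT OVA and 20.9 to 30.8 for WT PBS. Regulatory T cell markers summed to 38.3, 73.3 and 79.0 FPKM in the same libraries against 20.6 to 47.1 in WT OVA, so DJ1_KO_OVA_263 lay within the WT OVA range. The same order held for the sums of macrophage (157, 363 and 435), eosinophil (7.78, 23.0 and 34.2) and type 2 innate lymphoid and Th2 cell markers (109, 114 and 144 FPKM). In the last list Id2, its largest part, Klrg1 and Ptgdr2 were lowest in DJ1_KO_OVA_263. Gata3 (8.37, 5.10 and 12.4), Il2ra, Il9r, Bcl11b, Rora, Icos and Hpgds were lowest in DJ1_KO_OVA_266. Sums of the other cell types did not keep the order. Those of mast cell and basophil markers were 59.8, 59.6 and 50.8, and of T cell markers 522, 172 and 192 FPKM. With 3 libraries an order is a description only. Of the 5 regulatory T cell markers 2 rose against WT OVA, Foxp3 by 2.51-fold (adjusted p 0.044) and Ctla4 by 2.61-fold (adjusted p 0.036), with a list median of 1.07. The count of 2 was 0 without DJ1_KO_OVA_267 (adjusted p 0.16 and 0.14), without any single WT OVA replicate or without WT PBS replicate 1, and 1 without WT PBS replicate 2 or 3. The part of any of these cells in the Il1rl1 difference was not tested.

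Il1rl1 sits in a cluster of IL-1 receptor genes on chromosome 1, whose other members are read here beside it. Il1r1, the signalling receptor for IL-1, measured 3.73 ± 0.504 FPKM in WT OVA, against 6.96 ± 0.711 in DJ-1 KO OVA, 1.77-fold higher with an adjusted p of 0.020. Il1r2, the decoy receptor for IL-1, was lower, at 72.4 ± 4.98 FPKM in WT OVA against 38.9 ± 11.9 in DJ-1 KO OVA, with an adjusted p of 0.034. Il1rl2, the receptor of the IL-36 cytokines and the neighbour on the side of Il1r1, measured 2.12 ± 0.0488 and 3.88 ± 1.27 FPKM with an adjusted p of 0.054. The IL-18 receptor genes on the other side, Il18r1 and Il18rap, gave -0.42 and 0.27 with adjusted p of 0.19 and 0.51. Of these 5 neighbours 1 rose and 1 fell against WT OVA, with a median of 0.27 that was -0.029 with a length trend removed. Both calls were lost without WT OVA replicate 5 (adjusted p 0.072 for Il1r1 and 0.10 for Il1r2), WT OVA replicate 9 (0.068 and 0.086) or DJ1_KO_OVA_267 (0.084 and 0.12), and that of Il1r2 also without WT OVA replicate 6 (0.092), WT PBS replicate 1 (0.060) or DJ1_KO_OVA_263 (0.082).

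The TSLP receptor chain Crlf2 was the most abundant member in both wild-type groups. Crlf2 (ENSMUSG00000033467, chromosome 5, 109554709 to 109558993, minus strand) measured 93.8, 77.7 and 84.3 FPKM in the WT PBS libraries, 78.0, 54.3 and 75.6 in the WT OVA libraries and 32.7, 101 and 72.7 in the knockout libraries. The knockout libraries held both the lowest and the highest value of all 9, and all 3 groups overlapped. The difference of DJ-1 KO OVA from WT OVA was -0.13 ± 0.36 (SE), a ratio with a 95% interval of 0.524 to 1.58 and an adjusted p of 0.82. Its sign depended on DJ1_KO_OVA_263, without which it was 0.33, and on scaling, with 0.48 under equal sums, 0.18 under quantile normalization and 0.20 with a length trend removed. DJ1_KO_OVA_263 also had the lowest summed dendritic cell markers, at 76.0 FPKM against 108 to 159 in the other 8 libraries, and the lowest macrophage markers, at 157 FPKM against 197 to 435. The part of these cells in the Crlf2 value was not tested.

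Il7r, the chain that TSLP and IL-7 receptors share, was higher in the knockout libraries, with a call that was lost in 10 of 18 alternatives. Il7r (ENSMUSG00000003882, chromosome 15, 9505788 to 9530176, minus strand) measured 7.96, 10.5 and 7.30 FPKM in the WT PBS libraries, 9.53, 10.3 and 12.1 in the WT OVA libraries and 17.4, 15.0 and 26.7 in the knockout libraries. Every knockout library was above every wild-type library. DJ-1 KO OVA exceeded WT OVA by 0.82 ± 0.24 (SE), 1.77-fold with a 95% interval of 1.22 to 2.55 and an adjusted p of 0.047. It passed the threshold in 8 of 18 alternative settings, with adjusted p from 0.0116 to 0.165, and the difference was 0.59 without DJ1_KO_OVA_267. The call was lost on leaving out WT PBS replicate 1 (adjusted p 0.074) or 3 (0.051), any WT OVA replicate (0.14, 0.11 and 0.094 for 5, 6 and 9), DJ1_KO_OVA_263 (0.077) or DJ1_KO_OVA_267 (0.17). Against WT PBS it was 2.19-fold higher with an adjusted p of 0.020, kept in 14 of 18 settings and lost without WT PBS replicate 1 (0.082), WT PBS replicate 3 (0.058) or DJ1_KO_OVA_267 (0.071). T cells are the main carriers of Il7r, and their 8 markers held 3 that rose (Cd4, Trac and Cd3e), with a median difference of 1.20. All 8 differences were above 0, but Cd3d and Cd3g overlapped between these groups, at 0.098 and 0.19 (adjusted p 0.86 and 0.73). The sum of the 8 was 522 FPKM in DJ1_KO_OVA_263 and 172 and 192 in DJ1_KO_OVA_266 and DJ1_KO_OVA_267. The count of 3 was 0 without DJ1_KO_OVA_267 or any single WT OVA replicate and 1 without DJ1_KO_OVA_263 or WT PBS replicate 1. Il7r was highest in DJ1_KO_OVA_267 and the T cell sum in DJ1_KO_OVA_263, and the part of T cells in the Il7r difference was not tested.

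Il17rb, the chain that binds IL-25, rose in DJ-1 KO OVA against each wild-type group. Il17rb (ENSMUSG00000015966) lies on chromosome 14 from 29996135 to 30008896 on the minus strand. It measured 0.467, 0.315 and 0.325 FPKM in the WT PBS libraries, 0.492, 0.306 and 0.439 in the WT OVA libraries and 2.30, 1.66 and 2.25 in the knockout libraries. Every knockout library was above every wild-type library, with 145 to 293 reads against 24 to 37. DJ-1 KO OVA exceeded WT OVA by 1.49 ± 0.19 (SE), 2.81-fold with a 95% interval of 2.09 to 3.76 and an adjusted p of 0.0033, and it passed the threshold in all 17 settings that tested it. The pseudocount compresses this fold, since the mean FPKM was 0.412 ± 0.0957 in WT OVA against 2.07 ± 0.357 in DJ-1 KO OVA (SD, n = 3). Against WT PBS the difference was 2.94-fold with an adjusted p of 0.0018. Il17rb lies within 10220 bases of span shared with Actr8, a chromatin remodelling subunit on the opposite strand, and 141 of its 3707 exon bases are shared with Actr8 exons. The sources used here do not say whether reads were counted by strand. Actr8 itself measured 2.37 to 2.88 FPKM in the 9 libraries and differed between the challenged groups by -0.04, with an adjusted p of 0.88.

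**Figure D2:**
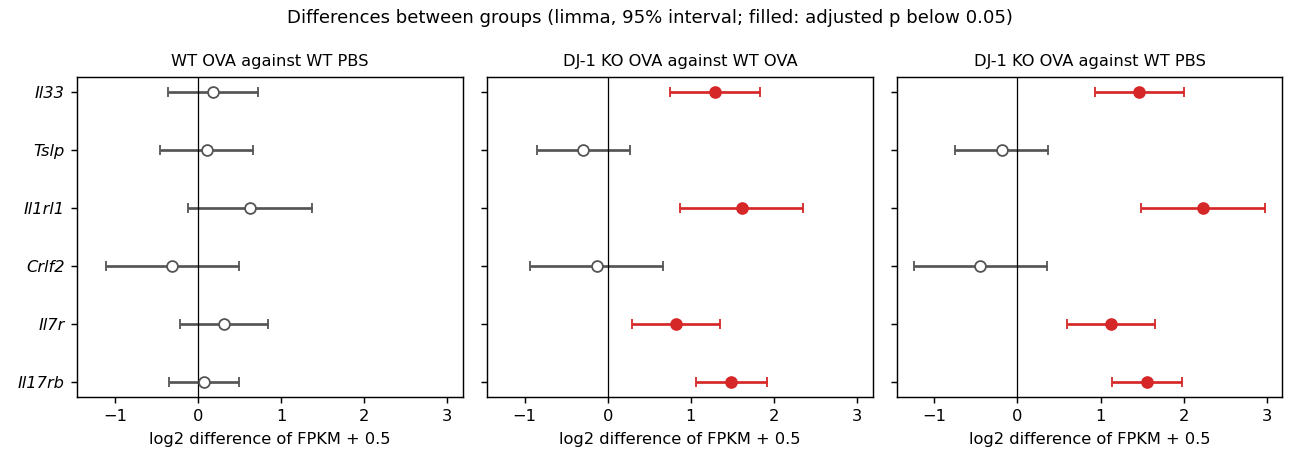
Difference of log2(FPKM + 0.5) between groups (x axis) for the 6 tested transcripts, one panel a comparison; points are limma estimates, whiskers 95% intervals, and filled points have an adjusted p below 0.05. In the panels with DJ-1 KO OVA, Il33, Il1rl1, Il7r and Il17rb lie above 0, and Tslp and Crlf2 have intervals that span it.

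**Figure D3:**
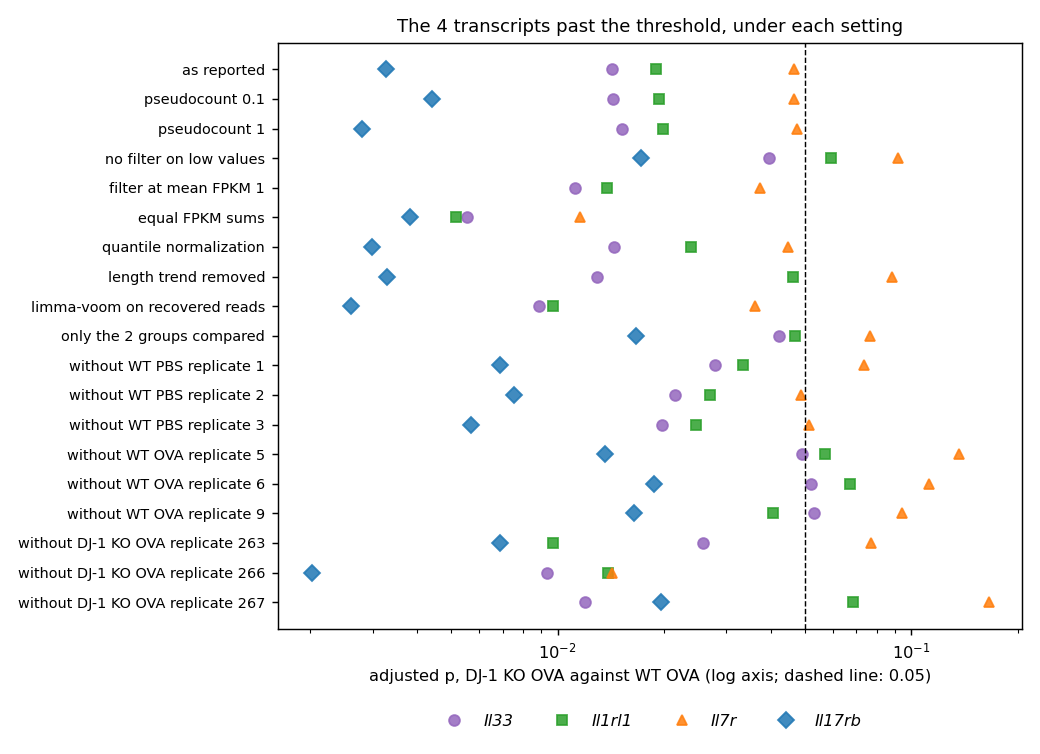
Adjusted p (x axis, log scale) of the 4 transcripts past the threshold in DJ-1 KO OVA against WT OVA, in the reported analysis and in each alternative (y axis); the dashed line is 0.05. Il17rb stays left of the line wherever it was tested, while Il7r crosses it in 10 of 18 alternatives.

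The order of mean levels was not the same in the wild type and the knockout. In both wild-type groups mean FPKM fell from Crlf2 to Il33, Il7r, Il1rl1, Tslp, Il17rb and Il25, and in WT PBS Il1rl1 overlapped Tslp and Tslp overlapped Il17rb. In DJ-1 KO OVA, Il33 came first but overlapped Crlf2, followed by Il7r and Il1rl1, and Il17rb stood above Tslp without overlap. These are levels per length. The length used for Il17rb, 3707 bases, equals all of its annotated exon bases. The transcript expressed may be shorter, so an order or ratio across genes is approximate.

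The partner chains complete the same receptors. Il1rap averaged 2.31, 1.91 and 2.68 FPKM over WT PBS, WT OVA and DJ-1 KO OVA, Il17ra 24.3, 13.3 and 12.4, and Il2rg, the common gamma chain that pairs with Il7r in the IL-7 receptor, 29.9, 24.3 and 33.5. None of the 3 passed the threshold in any comparison, with adjusted p of 0.20, 0.83 and 0.15 in DJ-1 KO OVA against WT OVA, a median difference of 0.38 that was -0.057 with a length trend removed, and 2 of 3 called higher under equal sums. The ratio of Il1rl1 to Il1rap FPKM was 0.511 ± 0.179, 1.11 ± 0.400 and 2.88 ± 1.01 (SD, n = 3) in these groups. The ratio of Il17rb to Il17ra was 0.0171 ± 0.0070, 0.0311 ± 0.0074 and 0.166 ± 0.0056, nearly the same in all 3 knockout libraries at 0.173, 0.162 and 0.163. The ratio of Crlf2 to Il7r was below every wild-type value in 2 knockout libraries, at 1.88, 6.75 and 2.72 against 5.26 to 8.18 in WT OVA and 7.43 to 11.8 in WT PBS.

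**Figure D4:**
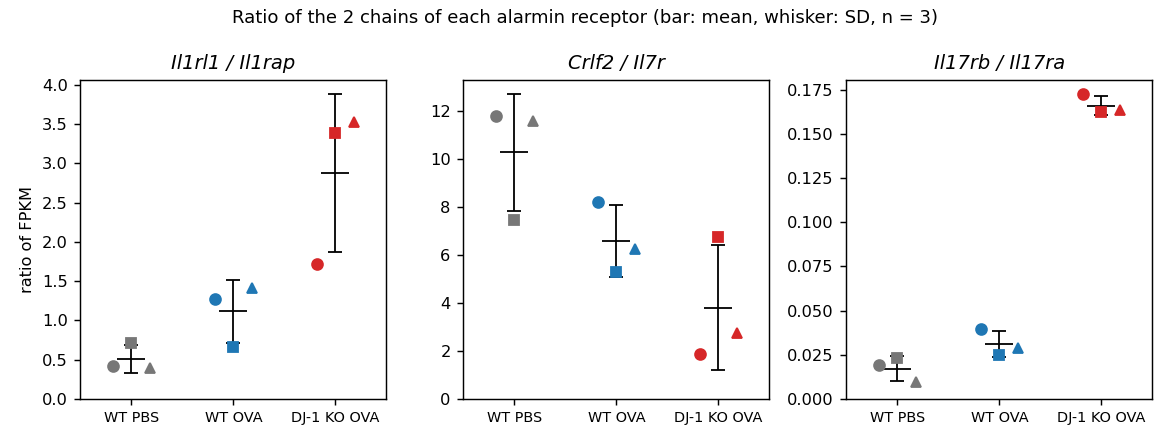
Ratio of FPKM of the alarmin-binding or first chain to its partner (y axis, from 0) in each library by group (x axis), for the receptors of IL-33, TSLP and IL-25; points are libraries, bars means and whiskers SDs of 3 libraries. The Il17rb to Il17ra ratio is 0.162 to 0.173 in the knockout libraries and below 0.0393 in 5 of the 6 wild-type libraries, with the sixth at 0.0393.

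Signalling genes downstream of the receptors were taken from 3 lists. Of 12 genes of TSLP and IL-7 receptor signalling, 6 rose in DJ-1 KO OVA against WT OVA and 0 fell (Jak1, Jak2, Jak3, Stat5a, Socs1 and Cish), with a median difference of 0.82. Of all tested genes 5.93% were called higher there. Jak2, the kinase bound by the Crlf2 product, rose from 10.8 ± 0.784 to 28.9 ± 9.998 FPKM (2.51-fold, adjusted p 0.012). Cish, a feedback inhibitor that STAT5 induces, rose 2.69-fold from 7.49 ± 3.29 to 21.0 ± 8.22 FPKM (adjusted p 0.035), and Stat5a rose 1.94-fold (adjusted p 0.023). The Cish groups were close to overlapping, with DJ1_KO_OVA_263 at 11.9 FPKM and WT OVA replicate 5 at 11.0. Il7, the other cytokine that uses Il7r, measured 0.455 ± 0.115 FPKM in WT OVA against 0.419 ± 0.0758 in DJ-1 KO OVA, with an adjusted p of 0.89. The count of 6 became 3, 0 and 1 on leaving out WT OVA replicate 5, 6 or 9, 2 without WT PBS replicate 1, 2 without DJ1_KO_OVA_267, 2 with a length trend removed or with only the 2 groups compared, and 1 with no filter, and the median difference stayed between 0.56 and 1.43 in the alternatives.

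The IL-33 receptor signalling list had a share of calls close to the 14.2% of all tested genes. Of its 15 genes, 2 rose in DJ-1 KO OVA against WT OVA and 0 fell, with a median difference of 0.02, or -0.06 without DJ1_KO_OVA_267. They were Nfkb1, a subunit of NF-kB, at 8.88 ± 0.866 and 17.9 ± 5.18 FPKM (adjusted p 0.042), and Irak1, a kinase recruited by MyD88, at 9.92 ± 0.483 and 16.7 ± 3.00 FPKM (adjusted p 0.047). Without DJ1_KO_OVA_267 the adjusted p was 0.15 for Nfkb1 and 0.17 for Irak1, and neither was called on leaving out DJ1_KO_OVA_263, any WT OVA replicate or WT PBS replicate 1. Among all tested genes 8.24% were called lower. Of 9 genes of IL-25 and IL-17 receptor signalling, 0 rose and 2 fell, with a median of 0.12, or -0.061 without DJ1_KO_OVA_267. Both are C/EBP transcription factors that IL-17 induces: Cebpb went from 477 ± 55.4 to 163 ± 75.4 FPKM (adjusted p 0.025) and Cebpd from 105 ± 23.7 to 40.8 ± 19.5 (adjusted p 0.021). Neither was called without DJ1_KO_OVA_263 (0.052 and 0.053), without DJ1_KO_OVA_267 (0.085 and 0.089) or without any single WT OVA replicate. In WT OVA against WT PBS these 3 lists held 0 calls, with medians of -0.32, -0.28 and -0.22 in the order given here. Against WT PBS the knockout libraries had 2 calls in the first list (Cish and Jak2, both higher), 0 in the second and 1 in the third (Cebpb, lower).

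Some other cytokines of the IL-1 and IL-17 families fell. Of 14 genes, 9 were tested, and in DJ-1 KO OVA against WT OVA 0 rose and 3 fell, with a median difference of -0.48 that turned to 0.14 under equal sums. Of all tested genes 8.24% were called lower there. Il18, an IL-1 family cytokine also made by epithelium and macrophages, measured 47.6, 39.2 and 52.7 FPKM for WT OVA and 6.88, 10.8 and 8.64 for the knockout. It was 5.11-fold lower without overlap, with an adjusted p of 0.0033, and passed the threshold in all alternatives. Il36g, an epithelial IL-1 family cytokine, was 2.55-fold lower (29.7 ± 4.36 and 11.5 ± 3.24 FPKM, adjusted p 0.024) and Il17d 1.86-fold lower (adjusted p 0.028). Il1b had means of 1952 and 855 FPKM and an adjusted p of 0.066. Without DJ1_KO_OVA_267 the adjusted p was 0.10 for Il36g and 0.11 for Il17d, and neither was called without any single WT OVA replicate. Il36g was also lost without DJ1_KO_OVA_263 (0.059) and Il17d without WT PBS replicate 1 (0.051). Neutrophil markers, 3 of 4 of which fell with a median of -2.67 (1 of 4 without DJ1_KO_OVA_267 or WT OVA replicate 9), moved the same way, and their part in these differences was not tested.

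**Figure D5:**
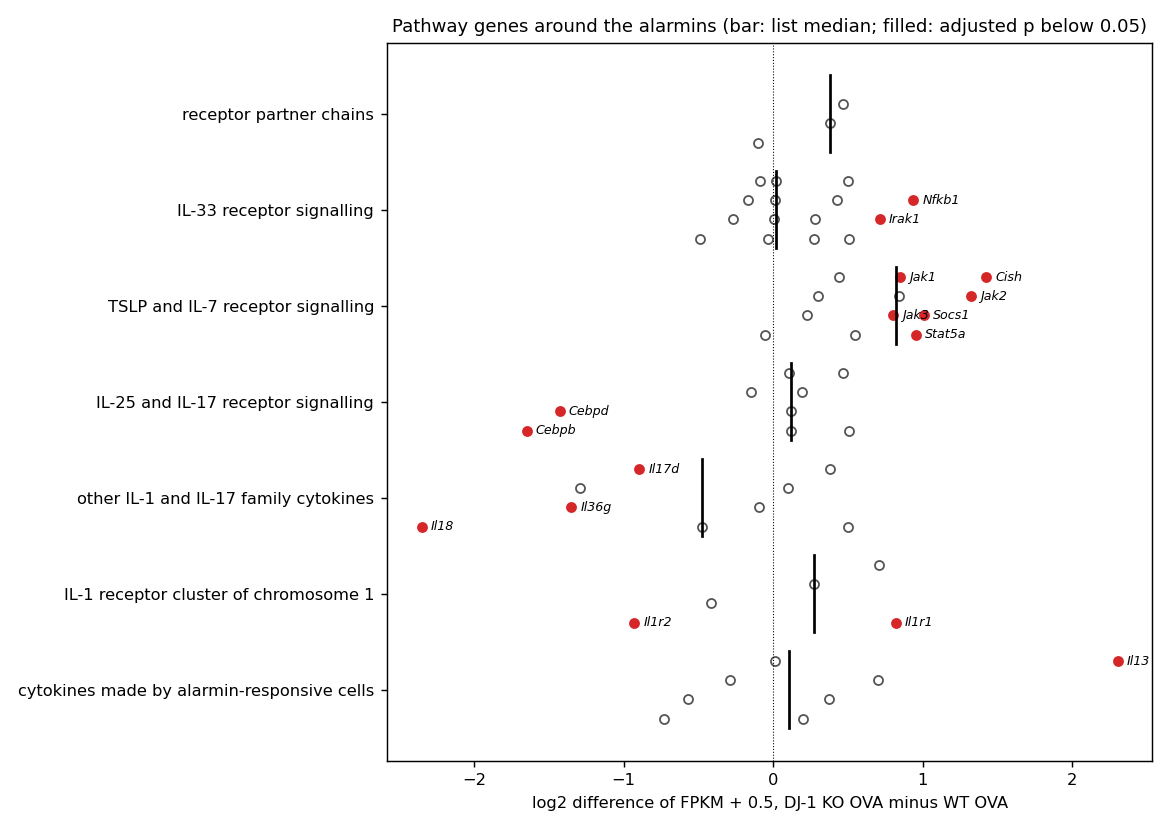
Difference of log2(FPKM + 0.5), DJ-1 KO OVA minus WT OVA (x axis), for the tested genes of 7 lists around the alarmins (y axis); each point is a gene, filled and named where the adjusted p is below 0.05, and the bar is the list median. The TSLP and IL-7 signalling list has 6 filled points, all above 0, and the list of other IL-1 and IL-17 family cytokines has 3, all below 0 and with a median of -0.48 (0.14 under equal sums).

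Cytokines of the cells that alarmins act on were read last. Il13, a type 2 effector cytokine that drives mucus production, measured 0.466, 0.404 and 0.243 FPKM in WT PBS, 2.81, 0.761 and 1.94 FPKM in WT OVA, and 6.78, 11.7 and 13.3 FPKM in the knockout libraries. The groups did not overlap, and DJ-1 KO OVA was 4.95-fold above WT OVA with an adjusted p of 0.0072, within 0.0014 to 0.039 over the alternatives. Il13 was the 1 of 8 tested cytokines that rose there, 0 fell, and the list median was 0.11, turning to just under 0 without WT OVA replicate 6. A share of 1 in 8 is close to the 14.2% of all tested genes called there. Il4 and Il5, the other signature type 2 cytokines, gave differences of 0.70 and 0.37 with adjusted p of 0.16 and 0.43. Against WT PBS 3 of the 8 rose, Il4, Il5 and Il13, with a median of 0.95. Il13 passed the threshold there in all 18 alternatives, and Il4 and Il5 in 12 each, with adjusted p up to 0.13 and 0.12. The count of 3 was 1 without DJ1_KO_OVA_267, without WT PBS replicate 1 or 3, with no filter and in the fit of the compared groups alone, 2 without WT OVA replicate 5 or WT PBS replicate 2, and 5 under equal sums or quantile normalization. In WT OVA against WT PBS 0 of 8 passed the threshold, with a median of 0.78 and all 8 differences above 0.

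Markers of the cells that carry these receptors were counted in DJ-1 KO OVA against WT OVA, where 5.93% of all tested genes were called higher. Of 9 tested markers of type 2 innate lymphoid and Th2 cells, 4 rose in DJ-1 KO OVA against WT OVA and 0 fell, with a median of 0.95: Gata3, the lineage factor, rose 3.67-fold (1.85 ± 0.210 and 8.62 ± 3.66 FPKM, adjusted p 0.0068), and Il2ra, Il9r and Bcl11b had adjusted p of 0.015, 0.026 and 0.046. Gata3 passed the threshold in all 18 alternatives, Il2ra in 16, Il9r in 13 and Bcl11b in 5. All but Gata3 missed it without WT OVA replicate 6 (0.056, 0.084 and 0.099) or DJ1_KO_OVA_267 (0.066, 0.10 and 0.13). Bcl11b, a transcription factor of T cells and type 2 innate lymphoid cells, measured 18.2, 1.75 and 4.81 FPKM in the knockout libraries, highest in DJ1_KO_OVA_263, and its difference of 1.98 ran from 1.17 to 2.70 over the alternatives. The count of 4 was 6 without DJ1_KO_OVA_266, 1 without DJ1_KO_OVA_267 or WT OVA replicate 6 and 2 without WT OVA replicate 5. The sum of the 10 markers overlapped, at 106 to 160 FPKM in WT OVA against 109 to 144 in DJ-1 KO OVA. Id2 was its largest part, at 78.0 to 106 and 46.4 to 76.5 FPKM. Differences were above 0 for 6 of the 9 tested markers. Those of Hpgds (-0.61, adjusted p 0.076), Id2 (-0.48, adjusted p 0.21) and Klrg1 were not. Of 9 tested mast cell and basophil markers 0 rose and 0 fell, with a median of -0.14 (0.43 under equal sums) and sums of 54.9 to 71.4 and 50.8 to 59.8 FPKM. No marker of either list was at 0 in all libraries, and the part of these cells in the receptor differences was not tested.

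The genes most like each member were taken by the smallest root mean square difference of centred log2(FPKM + 0.5) over the 9 libraries, among about 11709 genes with a mean of at least 1 FPKM. For Il33 they were Cdc20, Cdc45 and Ccne1, with 0.165 for Cdc20 against a median of 0.745 over all genes. For Il1rl1 the nearest were Ccr8 and Igf1, with 0.173 for Ccr8, which measured 17.6, 29.0 and 40.2 FPKM in the 3 knockout libraries. For Il17rb they were Dnajc3, Kif20a and Lig1 (0.186 for Dnajc3), and for Il7r Slc39a10, Oxct1 and Canx (0.113 for Slc39a10). For Crlf2 they were Card9, Rab20 and Cotl1 (0.0944 for Card9), all low in DJ1_KO_OVA_263 at 6.25, 15.4 and 182 FPKM, and for Tslp Malsu1, Ddt and Zfp428 (0.0971 for Malsu1). Among pairs of members that include a gene with a mean of at least 1 FPKM, Il33 and Il17rb were the closest at 0.308, and Crlf2 and Il1rl1 the farthest at 1.17. These are likenesses over libraries that share their groups and depth, and no test belongs to them.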

How the data were processed

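RNA of lung cells was sequenced in 9 libraries of 3 groups, 3 libraries a group, grouped by the treatment labels. The authors deposited FPKM per gene with gene positions and lengths, per the file headers. Per the submitters' processing notes, Trimmomatic, HISAT2 and HTSeq were used with GRCm38.p6; the sources used here give neither their roles and versions nor any use of strand. Libraries came from total RNA with a TruSeq kit, per the labels' protocols.

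FPKM times gene length was a whole multiple of 1 step for 100% of values within 0.01 reads, which gave 20812192 to 29080130 reads a library. The deposited scale per library did not follow these reads alone. Values were analysed as log2(FPKM + 0.5) for 17716 genes with a mean of at least 0.2 FPKM, in 1 limma fit of all libraries (limma 3.58.1, R 4.3.3, variance trend, 6 residual degrees of freedom), with Benjamini-Hochberg adjustment over all of them and calls at 0.05. The fit was also run on simulated reads with the same spread setting for every gene. That is simpler than these data, and no result here rests on it. Low genes have understated folds. An exact test of 3 against 3 libraries cannot reach 0.05, so calls rest on the model across genes.

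Alternatives changed the pseudocount (0.1 or 1), the filter, the scaling, the fit (limma-voom on recovered reads, or only the 2 groups compared) or left out each library. The members, gene lists and marker lists were chosen with earlier results of these data known. Genes were named by rule: all members, partner chains, Park7, up to 4 genes of each list with the smallest p in DJ-1 KO OVA against WT OVA, and the 3 genes most like each member. A gene that this rule names is not reported here. Jak1, Jak3, Il7, Il5, Il18rap, Pou2f3, Chdh, Actr8, Abca3, Etv5, Slc34a2, Id2, Klrg1, Ptgdr2, Rora, Icos, Hpgds, Cd3d and Cd3g were named after their values were seen. Il36a, Il36b, Il36g and Il36rn were found under older symbols through RefSeq synonyms.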

Additional observations from a re-analysis of the deposited data

How the results depend on the processing

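Of 318 values of the members under 18 alternatives, 284 kept their direction and side of the threshold, 20 lost the call and 14 changed sign. Depth limits Tslp and Il25. No paired analysis was possible because the labels share no replicate numbers across groups. For all tested genes, WT OVA against WT PBS gave 1 call, 0 with pseudocount 0.1, a filter at 1 FPKM, equal sums, quantile normalization, length trend removed, limma-voom or only 2 groups, 2 with no filter, and 0 to 14 leaving out one library (14 without WT OVA replicate 6). DJ-1 KO OVA against WT OVA gave 2510 calls (1051 higher, 1459 lower), 645 with no filter, 1131 with only 2 groups, 5034 with equal sums (4432 higher, 602 lower, the median of all genes shifted by 0.46) and 286 (without DJ1_KO_OVA_267) to 5694 (without DJ1_KO_OVA_266) leaving out one. DJ-1 KO OVA against WT PBS gave 1513, 669 with no filter, 700 with only 2 groups and 436 (without WT PBS replicate 1) to 3897 (without DJ1_KO_OVA_266) leaving out one. Of the members, 4 were called in DJ-1 KO OVA against WT OVA, 2 with no filter and 1 to 4 leaving out one library. The causes were not tested. Signs changed for values that passed the threshold in no setting, except Il1rap in DJ-1 KO OVA against WT OVA, called higher under equal sums (adjusted p 0.042). In WT OVA against WT PBS, equal sums gave -0.13 for Il33, -0.049 for Tslp and -0.068 for Il17rb, and Tslp was -0.042 with length trend removed and -0.13 (without WT PBS replicate 3) to 0.34 leaving out one library. In DJ-1 KO OVA against WT OVA, equal sums gave 0.022 for Tslp, 0.48 for Crlf2, 0.50 for Il17ra, 0.17 for Il18r1 and 0.49 for Actr8; length trend removed gave 0.068 for Tslp, 0.20 for Crlf2, -0.057 for Il1rap and -0.029 for Il18rap; quantile normalization gave 0.18 for Crlf2. Leaving out one library, Crlf2 ran from -0.48 to 0.33 (without DJ1_KO_OVA_263) and Il17ra from -0.18 to 0.029 (without DJ1_KO_OVA_266). In DJ-1 KO OVA against WT PBS, length trend removed gave 0.026 for Tslp and -0.13 for Il1rap, and leaving out one library gave -0.43 to 0.045 for Tslp (the latter without WT PBS replicate 2), -0.79 to 0.015 for Crlf2 (without DJ1_KO_OVA_263) and -0.0032 (without DJ1_KO_OVA_267) to 0.30 for Il1rap.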

Other observations

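Dendritic cells and eosinophils also carry alarmin receptors. Among all tested genes 14.2% were called in DJ-1 KO OVA against WT OVA, a share close to 1 in 7. Of 7 dendritic cell markers 1 rose in DJ-1 KO OVA against WT OVA, Itgae, the integrin of CD103+ dendritic cells and of some T cells, at 1.48 ± 0.216 and 5.19 ± 3.43 FPKM (SD, n = 3; limma adjusted p 0.039, 0.0084 to 0.11 over the alternatives). Of 4 tested eosinophil markers 0 rose and 0 fell. Prg2, which encodes eosinophil major basic protein, measured 4.79, 0.521 and 2.18 FPKM for WT OVA and 0.693, 15.1 and 15.0 FPKM in the knockout libraries, so DJ1_KO_OVA_263 lay among the wild-type values. Goblet cell markers, which IL-13 is known to induce, held 2 of 4 that rose: Muc5ac, at 2.96 ± 2.10 and 23.2 ± 8.46 FPKM (adjusted p 0.011, 0.0045 to 0.052 over the alternatives), and Muc5b, at 11.2 ± 2.36 and 30.1 ± 11.2 FPKM (adjusted p 0.026, 0.0035 to 0.11). Neither was called without DJ1_KO_OVA_267, which left 0 of 4.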
